A study of Mus musculus with 2 samples.

Results

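The genes described here encode the proteins of the cytosolic ribosome, the particle that translates messenger RNA in the cytoplasm. They were chosen by symbol: every gene named Rps or Rpl with a number, Rplp0, Rplp1, Rplp2 and Rpsa, as long as it had at least 1000 unique molecular identifiers (UMIs, each standing for 1 captured RNA molecule) over both libraries. Of 27998 genes in the files, 81 matched the symbol pattern and 77 also passed the threshold. Rps27l, with 16744 UMIs, was the member nearest to the threshold, followed by Rpl31 with 36419. The 4 matching genes below it were Rpl6l with 311 UMIs, Rpl3l with 203, Rpl39l with 82 and Rpl10l with 2.

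RNA was counted cell by cell in 2 droplet libraries of nonparenchymal cells, which are the immune, endothelial and other liver cells besides hepatocytes. All mice were C57BL/6 and had been given carbon tetrachloride (CCl4), a liver toxin used as a model of fibrosis, 4 times. One library was from wild-type mice and the other, labelled yap1, from mice with floxed Yap1 alleles and Cre recombinase expressed from the Lyz2 locus (yap1 flox/flox lyz2cre), which recombines in myeloid cells such as macrophages, monocytes and neutrophils. Each library was a sample from 3 mice and each genotype had 1 library, so no difference between them has a replicate check, no test was made, and genotype cannot be told apart from library. Intervals below are 95% and cover counting error only.

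A ribosome has a small subunit, built with the Rps proteins, and a large subunit, built with the Rpl proteins. Each protein is needed in about equal number, and their messenger RNAs are among the most abundant of most cells. Many of these messengers begin with a run of pyrimidines (C and T in the gene), the terminal oligopyrimidine tract, through which growth signalling by mTOR and the RNA-binding protein Larp1 sets their translation. The genome also carries many processed copies of these genes, so that short reads from a member can fit more than 1 gene.

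There were 5269 barcodes and 30386545 UMIs in wild type, and 4731 barcodes and 34234353 UMIs in yap1. Members made up 18.4% of all UMIs in wild type and 19.6% in yap1. After filtering, 4653 and 3983 cells with median depths of 4066 and 5285 UMIs remained, and 5 barcodes occurred in both libraries. Cells were put into types by their own markers, and a type is called "-like" because the deposited files give no cell annotation. Of the kept cells 84.1% and 80.0% met a gate, and 10 types had at least 50 cells in each library, with 3710 wild-type and 3034 yap1 cells in all. The median cell of each type had between 4 and 8 markers of its own list. Yap1 itself was too rare to check the labels in myeloid cells: summed over each of the 5 myeloid types it had at most 1 UMI in either library. In sinusoidal endothelial cell-like cells, where this Cre is not expected, Yap1 reached 69.8 CPM (counts per 1000000 UMIs) in wild type (57.0 to 84.7) and 66.8 in yap1 (51.7 to 85.0). Lyz2, the locus that carries Cre, was lower in yap1 in all 5 myeloid types, with 7096 and 2733 CPM in Kupffer cell-like, 13710 and 6917 in monocyte-derived macrophage-like, 24640 and 12840 in classical monocyte-like, 11070 and 6687 in nonclassical monocyte-like and 5485 and 2406 in neutrophil-like cells of wild type and yap1.

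The share of a cell's RNA taken by ribosomal protein messengers set the cell types apart. Neutrophil-like cells, short-lived granulocytes, were lowest, at 2.90% of UMIs in wild type (2.87% to 2.93%, exact Clopper-Pearson interval) and 3.64% in yap1 (3.61% to 3.67%). Hepatocyte-like barcodes followed at 8.52% and 8.77%, and sinusoidal endothelial cell-like cells, which line the liver's capillaries, at 10.9% and 11.9%. These were the 3 lowest types in both libraries.

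Kupffer cell-like cells, the resident liver macrophages, had 11.5% in wild type and 13.3% in yap1. Monocyte-derived macrophage-like cells had 12.8% and 15.04%. Among monocytes, the nonclassical, patrolling kind had 14.8% and 16.7% and the classical kind 17.5% and 18.7%. Within the mononuclear phagocytes the order was therefore the same in both libraries, from Kupffer cell-like up to classical monocyte-like.

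Plasmacytoid dendritic cell-like cells, the specialised producers of type I interferon, had 18.0% in wild type and 19.8% in yap1. Lymphocytes were highest, with 27.9% and 29.9% in B cell-like and 30.7% and 34.1% in T cell-like cells. The order of the 10 types was the same in both libraries. Single cells spread more widely than the sums: the middle 50% of wild-type T cell-like cells lay between 21.5% and 37.5%, and that of wild-type sinusoidal endothelial cell-like cells between 8.41% and 15.95%. The middle ranges of neighbours in this order, such as Kupffer cell-like (9.58% to 12.9%) and sinusoidal endothelial cell-like cells, overlapped.

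**Figure D1:**
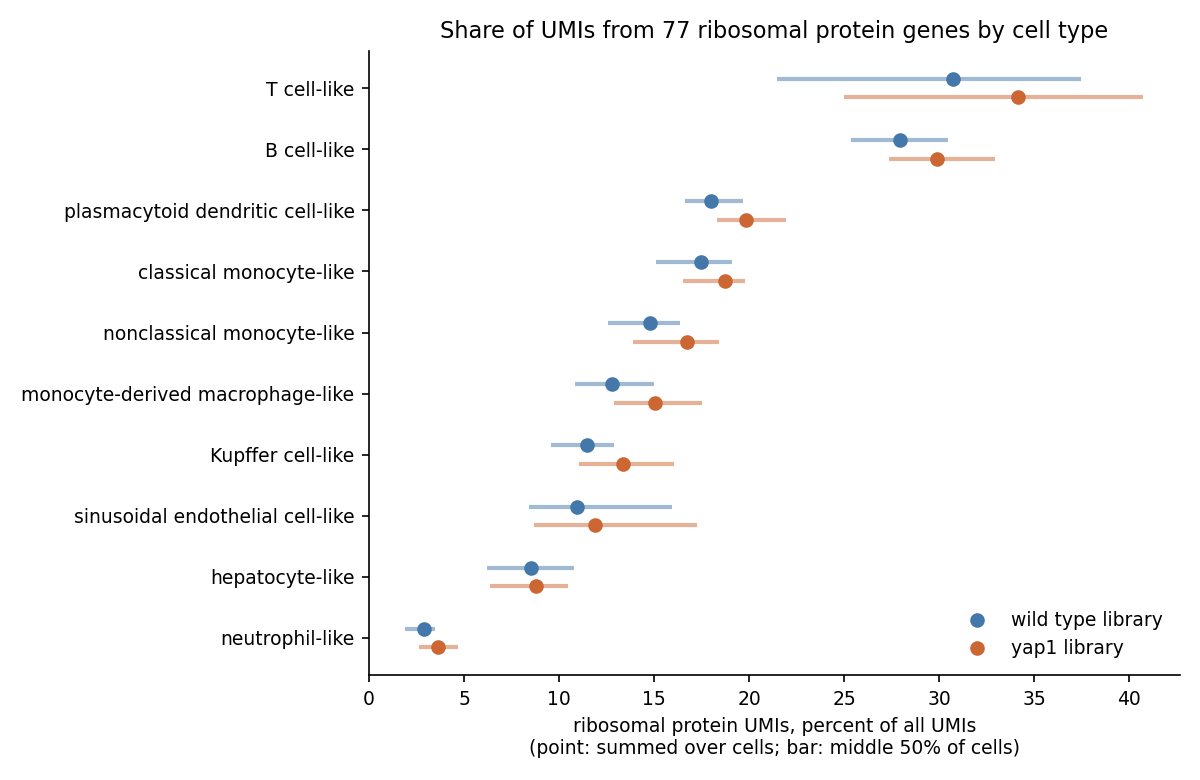
Ribosomal protein UMIs as a percent of all UMIs (x axis) in 10 marker-gated cell types (y axis) of the wild-type and yap1 libraries; points are sums over cells and bars the middle 50% of cells. Shares run from 2.90% and 3.64% in neutrophil-like to 30.7% and 34.1% in T cell-like cells, and the yap1 point lies right of the wild-type point in every type.

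The share was higher in the yap1 library in 10 of 10 cell types. In neutrophil-like cells the yap1 share was 25.5% higher than the wild-type share (ratio interval 1.24 to 1.27, exact conditional binomial), the largest difference. In the other myeloid types the ratio of yap1 over wild type was 1.18 (1.17 to 1.18) in monocyte-derived macrophage-like, 1.17 (1.16 to 1.17) in Kupffer cell-like, 1.13 (1.13 to 1.14) in nonclassical monocyte-like and 1.07 (1.07 to 1.08) in classical monocyte-like cells. In the types outside this myeloid group it was 1.11 (1.11 to 1.11) in T cell-like, 1.10 (1.09 to 1.11) in plasmacytoid dendritic cell-like, 1.09 (1.08 to 1.10) in sinusoidal endothelial cell-like and 1.07 (1.07 to 1.07) in B cell-like cells. Hepatocyte-like barcodes had the smallest ratio, 1.03 (1.01 to 1.05), and it was 0.9992 when cells were thinned to 1000 UMIs and 0.9991 when mitochondrial, hemoglobin and hepatocyte genes were left out of the total. Whether myeloid types differ from the others in this ratio was not tested.

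Both subunits were higher in yap1 by point value, but in hepatocyte-like barcodes the Rps share was nearly equal (3.645% in wild type, 3.663% in yap1). No interval was taken for the subunits. The Rps members alone gave ratios from 1.005 in hepatocyte-like to 1.23 in neutrophil-like cells, and the Rpl members from 1.05 to 1.27 in the same types. In each of the 10 types the Rpl ratio was the larger. Rps members held between 41.8% and 47.7% of the members' UMIs in every type and library.

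Other measures also differed between the libraries, in directions that varied between types, and their part in the result was not tested. The median depth was higher in yap1 in 9 of the 10 types, sinusoidal endothelial cell-like cells being the exception (2388 UMIs in wild type, 2219 in yap1). Mitochondrial UMIs were 3.47% and 4.27% in Kupffer cell-like cells, 7.81% and 8.82% in sinusoidal endothelial cell-like cells and 3.08% and 1.38% in hepatocyte-like barcodes. Immediate early and heat-shock genes, which respond to handling, made up 1.28% and 1.01% in monocyte-derived macrophage-like and 1.49% and 2.03% in neutrophil-like cells. Hemoglobin was at 0.155% in yap1 and 0.00172% in wild type in classical monocyte-like cells. Genes of hepatocytes such as Alb, from a list of 15, made up 14.7% and 14.0% of hepatocyte-like barcodes and between 0.00716% and 0.246% elsewhere.

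To see whether single members departed from the family, each was expressed as its percent of all member UMIs, here called its within-family share, and the ratio of yap1 over wild type was taken. A member counts as higher when it was at least 25% higher in yap1, or as lower when at least 20% lower, with an interval that excludes 1. All 77 members had the minimum of 50 UMIs in every type. The background is the percent of all genes with at least 50 UMIs, members included, that pass the same rule on the same scale.

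Kupffer cell-like cells had 10 members higher and 5 lower, 19.5% of the 77, and 22.2% of all genes passed. Monocyte-derived macrophage-like cells had 9 higher and 4 lower, 16.9%, beside 24.6% of all genes. Classical monocyte-like cells had 10 and 2, 15.6%, beside 17.1%, and nonclassical monocyte-like cells also 10 and 2, beside 23.7%. In these 4 types the members' percent was below the background on this scale. The background is not a like measure, because dividing by member UMIs centres the members but shifts all other genes by the family's ratio.

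Neutrophil-like cells had the most, 12 higher and 16 lower, 36.4% of members beside 26.4% of all genes. Plasmacytoid dendritic cell-like cells had 10 and 2 beside a background of 14.9%, B cell-like cells 9 and 3 beside 15.9%, and T cell-like cells 10 and 2 beside 21.4%. Sinusoidal endothelial cell-like cells had 9 and 4, 16.9%, beside 15.1%, and hepatocyte-like barcodes 11 and 4, 19.5%, beside 22.4%. This scale divides every gene by the member UMIs, which were the larger share in yap1, so genes outside the family were shifted down.

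On the CPM scale more members were higher than lower in every type. In Kupffer cell-like cells 19 were higher and 1 lower, while 7.03% of all genes were higher and 6.93% lower. Monocyte-derived macrophage-like cells had 21 and 1, beside 6.62% and 9.41% of all genes, classical monocyte-like cells 15 and 1, beside 6.92% and 6.84%, and nonclassical monocyte-like cells 19 and 1, beside 4.78% and 8.33%. In neutrophil-like cells 31 were higher and 2 lower, beside 19.9% and 5.69%. Scaling by the median of gene ratios shifted all genes there by 0.17 (log2) against CPM, and the split was then 19 and 5.

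Outside the myeloid types, plasmacytoid dendritic cell-like cells had 18 members higher and 2 lower on the CPM scale, beside 4.58% and 6.36% of all genes, and B cell-like cells 13 and 2, beside 5.96% and 6.37%. T cell-like cells had 16 and 1, beside 4% and 7.74%, sinusoidal endothelial cell-like cells 15 and 2, beside 4.17% and 6.53%, and hepatocyte-like barcodes 13 and 4, beside 14.2% and 9.18%. In hepatocyte-like barcodes the median log2 CPM ratio was 0.004 for members and 0.09 for all genes tested, so the typical member lay below the typical gene. Members are abundant, and abundant genes have narrower intervals. Among genes with at least as many UMIs as the lowest member, the percent past the rule in either direction was 19.2% in Kupffer cell-like, 24% in monocyte-derived macrophage-like, 15.7% in classical and 14.2% in nonclassical monocyte-like cells. It was 33.2% in neutrophil-like, 16.4% in plasmacytoid dendritic cell-like, 10.3% in B cell-like, 13.4% in T cell-like and 12.5% in sinusoidal endothelial cell-like cells, and 31.4% in hepatocyte-like barcodes.

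The median member moved less than the summed share. Its log2 CPM ratio was 0.14 in Kupffer cell-like, 0.14 in monocyte-derived macrophage-like, 0.09 in nonclassical and 0.02 in classical monocyte-like cells, and 0.26 in neutrophil-like cells. In B cell-like cells it was -0.01, with 37 of 77 members above a ratio of 1, although the summed share there was 7.01% higher. The count above 1 was 67 in monocyte-derived macrophage-like and 65 in Kupffer cell-like cells. Without the 9 members that passed in every type, described next, the ratio of the summed share was 1.12 in Kupffer cell-like, 1.13 in monocyte-derived macrophage-like and 1.02 in B cell-like cells. Most of the 9 were picked for being higher in these same data, so a smaller ratio follows from the choice and is no separate check.

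A set of 9 members passed in the same direction in every type. On the within-family scale 7 members were higher in all 10 types: Rpl35, Rps29, Rpl38, Rps27, Rpl37a, Rpl37 and Rpl39. Rpl15 and Rpl27 were lower in all 10. Of the 707 genes tested in every type, 9 (1.27%) were higher in all of them and 8 (1.13%) lower on this scale, the 7 and 2 members included. On the CPM scale Rps28 joined the higher members and Rpl27 was no longer among the lower ones, beside 1.7% and 0.849% of the 707 genes. Of the 630 genes outside the family, 4 were higher and 5 lower in every type on that scale. With a stricter barcode filter 4 of the 7 higher members were left (Rpl35, Rps29, Rpl38 and Rpl39), and with median-of-ratios scaling neither Rpl15 nor Rpl27 passed in all types.

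The sequences around the start sites of some of the members named here are shown so that their pyrimidine tracts can be compared. Each line gives 20 bases before the RefSeq start site and 10 from it on (GRCm38.p6, 5′ to 3′ on the gene's strand), with the unbroken run of C and T that holds the start base in capitals. Rpl35 lies on the minus strand at chr2:39005122-39005151, Rpl38 on the plus strand at chr11:114668560-114668589 and Rps27 on the minus strand at chr3:90213639-90213668. The lower members were Rpl15, minus strand, chr14:18270977-18271006, and Rpl27, plus strand, chr11:101442225-101442254. The last 3 differed between cell types: Rps6, minus strand, chr4:86857358-86857387, Rps9, plus strand, chr7:3704021-3704050, and Rps27l, plus strand, chr9:66946066-66946095.
Rpl35: gaagtcggccccgCCCTTTCCTCTTTCTCT
Rpl38: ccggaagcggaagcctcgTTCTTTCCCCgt
Rps27: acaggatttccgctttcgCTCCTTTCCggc
Rpl15: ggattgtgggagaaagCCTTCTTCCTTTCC
Rpl27: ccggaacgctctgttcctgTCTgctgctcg
Rps6: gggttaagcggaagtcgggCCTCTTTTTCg
Rps9: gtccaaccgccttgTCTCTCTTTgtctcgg
Rps27l: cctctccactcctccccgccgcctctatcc

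The longest of these runs, 18 and 17 bases and partly beyond the window, belonged to Rpl35, the member with the largest median ratio, and to Rpl15, the one with the smallest. Rpl27, also lower, had a run of 3, and in Rps27l the start base itself was no pyrimidine. The windows show only part of the members higher in every type. Of those not shown, Rpl37 started at an A (run of 0), Rpl37a had a run of 3 and Rpl39 a run of 5. Rps29 had no matched start site. Over the 57 members in the RefSeq promoter table, 31.6% began in a run of at least 5 pyrimidines, beside 9.95% of the 26969 other genes. These starts are annotated and were not mapped in these cells, so a run beside a misplaced start is not counted. A run of at least 8 within 30 bases of the start on either side was found in 56.1% and 22.6%. The motif CTTCCG, searched on both strands in the 250 bases before and 50 after the start, was in 68.4% of members and 17.2% of other genes. The 68 matched mitochondrial ribosomal protein genes, whose products serve the separate ribosome of the mitochondrion, had CTTCCG in 55.9% but the run of at least 5 in 5.88%. AAGATGG was found in 14.0% and 6.45%, and TATAAA in 8.77% and 14.2%, of members and other genes. A match of letters is a description of these windows and not a site of binding.

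Rpl35 encodes a large-subunit protein near the exit of the peptide tunnel. In wild type its level was 722 CPM in Kupffer cell-like, 695 in monocyte-derived macrophage-like, 810 in classical monocyte-like and 606 in sinusoidal endothelial cell-like cells. In yap1 the same types had 1506, 1653, 1797 and 1197 CPM. Every yap1 value lay above every wild-type value of these 4 types, and the within-family ratio was 1.79 (1.65 to 1.94), 2.02 (1.87 to 2.19), 2.07 (1.97 to 2.17) and 1.82 (1.66 to 1.98). The lowest level was in neutrophil-like cells, 88.3 and 195 CPM, and the highest in B cell-like cells, 1324 and 2831 CPM.

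Rps29 encodes a small zinc-binding protein of the small subunit. It was at 2304 and 4539 CPM in wild-type and yap1 Kupffer cell-like cells, at 2031 and 4451 in monocyte-derived macrophage-like, at 2137 and 4309 in classical monocyte-like and at 1385 and 2776 in sinusoidal endothelial cell-like cells. Its within-family ratio ran from 1.64 in hepatocyte-like to 1.94 in T cell-like cells. Across the 2 libraries its total was 70688 and 162192 UMIs, so that it ranked among the most abundant members.

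Rpl38, a large-subunit protein known for its part in the translation of Hox messengers in the embryo, had 1109 and 2201 CPM in Kupffer cell-like cells and 930 and 2243 in monocyte-derived macrophage-like cells. In the latter its ratio was 2.05 (1.92 to 2.19), the largest of any member there. The lowest ratio, 1.61 (1.49 to 1.75), was in plasmacytoid dendritic cell-like cells.

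Rps27, a zinc-finger protein of the small subunit, had ratios from 1.33 (1.247 to 1.43) in monocyte-derived macrophage-like to 1.75 (1.63 to 1.89) in neutrophil-like cells. Its level in B cell-like cells was 4933 CPM in wild type and 8113 in yap1, and in hepatocyte-like barcodes 423 and 604. The remaining 3 members higher everywhere all belong to the large subunit. Their median ratios over the types were 1.43 for Rpl37a, 1.42 for Rpl37 and 1.37 for Rpl39, and the lowest single value of these 3 was 1.251 (1.06 to 1.48), for Rpl37a in hepatocyte-like barcodes.

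Rpl15, a large-subunit protein, went the other way. It had 871 CPM in wild-type and 654 in yap1 Kupffer cell-like cells, 1063 and 830 in monocyte-derived macrophage-like, 1501 and 1110 in classical monocyte-like and 900 and 630 in sinusoidal endothelial cell-like cells. The within-family ratio in these types was 0.64 (0.58 to 0.71), 0.66 (0.62 to 0.71), 0.69 (0.66 to 0.72) and 0.64 (0.58 to 0.71). Rpl15 was thus lower both within the family and on the CPM scale.

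Rpl27, another large-subunit protein, had ratios from 0.70 in Kupffer cell-like to 0.77 in classical monocyte-like cells. On the CPM scale its ratio ran from 0.73 in hepatocyte-like barcodes to 0.95 in neutrophil-like cells. It passed the rule on that scale in 4 of the 10 types, and in Kupffer cell-like cells it was 0.81. Behind these 2 members, the lowest ratios of the main types were 0.77 for Rps3 in monocyte-derived macrophage-like, 0.78 for Rps7 in Kupffer cell-like and 0.78 for Rpl4 in sinusoidal endothelial cell-like cells.

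**Figure D2:**
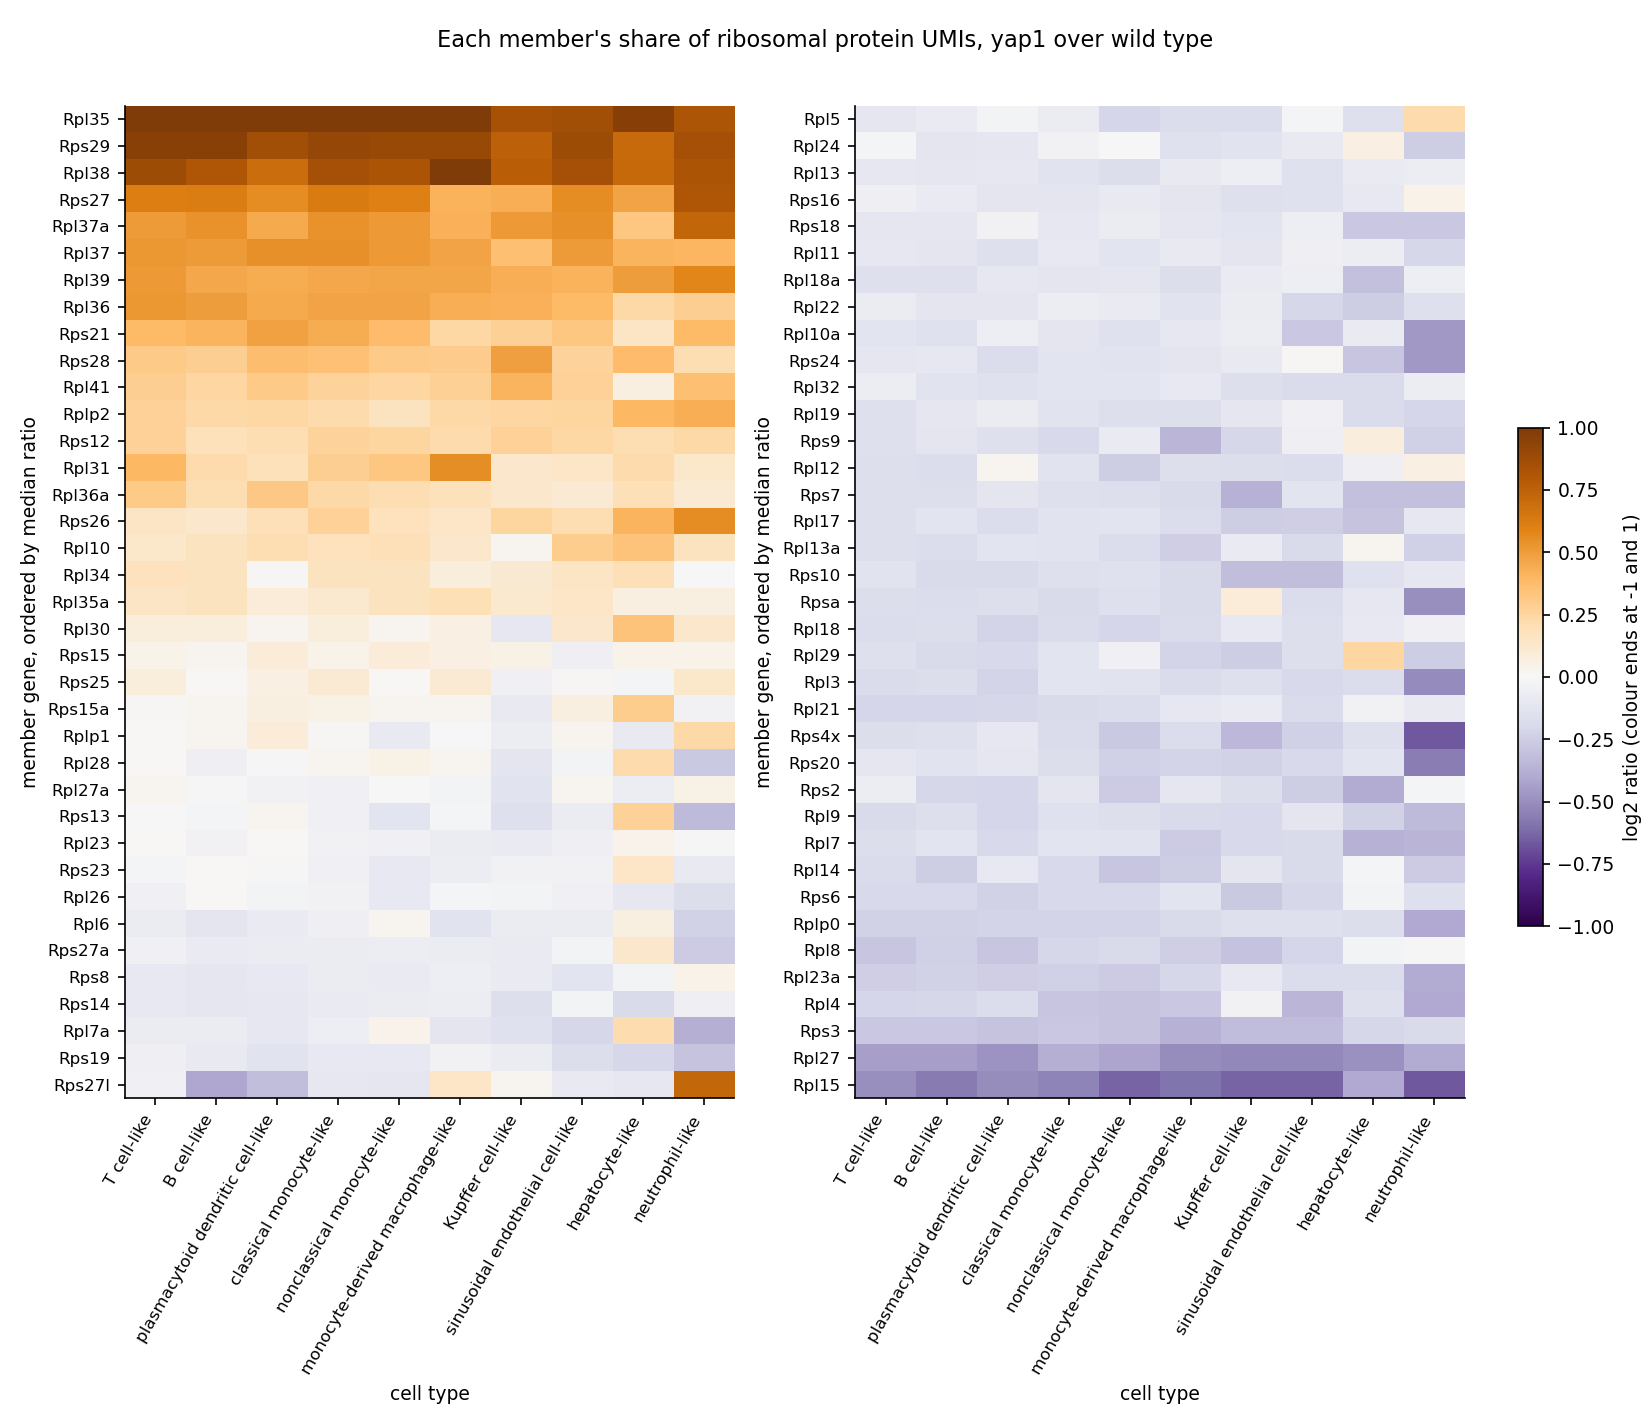
Heat map of the log2 ratio, yap1 over wild type, of each member's percent of ribosomal protein UMIs, with 74 of the 77 members (rows, ordered by their median over types) and 10 cell types (columns); colour ends at -1 and 1. The top rows, Rpl35 to Rpl39, are higher and the bottom rows, Rpl27 and Rpl15, lower in all 10 columns, and the neutrophil-like column departs most from the rest.

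The higher members were mostly short genes, a relation noticed in the data and described here without a test. The 10 members with a coding length under 300 bases had a median ratio of 1.40, and 9 of them were above 1 in every type, Rps27l being the exception. The 27 members of 300 to 450 bases had a median of 1.02, the 19 of 450 to 600 bases 0.90 and the 21 of 600 bases or more 0.88. Across the 77 members Spearman's rho between ratio and coding length was between -0.79 in T cell-like and -0.53 in hepatocyte-like cells. With the annotated transcript length, which is uneven because some annotated ends are long, rho was between -0.52 and -0.32.

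The points of these correlations share their libraries and depth, and genes are not replicates. Rpl35, at 369 bases, lay above other members of its length, and Rpl15, at 612 bases, and Rpl27, at 408 bases, below theirs. Genes outside the family with a transcript under 600 bases had median log2 CPM ratios from 0.07 in B cell-like to 0.28 in monocyte-derived macrophage-like cells. Those of 600 to 1000 bases had -0.05 and 0.11 in the same types. In neutrophil-like cells the medians were 0.26 and 0.14, beside 0.17 over all genes tested. In hepatocyte-like barcodes they were 0.22 and 0.10, beside 0.09, so part of the value there is a shift of all genes. Of the 630 other genes tested in every type, 4 were at least 25% higher in all of them on the CPM scale: Atp5k, Usmg5 and 2010107E04Rik, which encode small subunits of the mitochondrial ATP synthase, and Gm10076. Gm10076 shares sequence with the member Rpl41, as given below, so it is not independent of the family. These 4 genes and the lower ones named below were singled out after their values were seen.

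**Figure D3:**
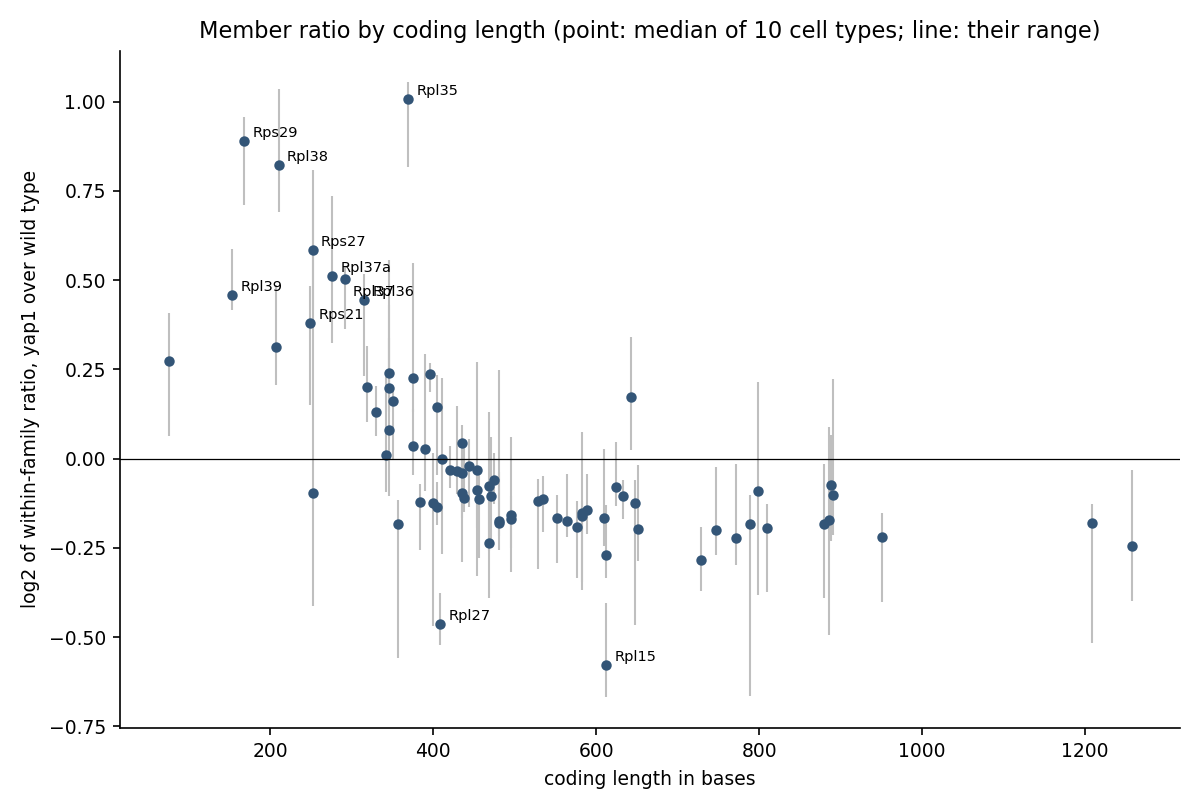
Log2 within-family ratio of yap1 over wild type (y axis) against coding length in bases (x axis) for 77 members; points are medians over 10 cell types and grey lines the range over types. Rps29, Rpl38 and Rps27 stand at the upper left and most members of 600 bases or more lie below 0, with Rpl35 above and Rpl15 and Rpl27 below members of like length.

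Reads from members can fit other genes, and counts of such partners differed between the libraries. Over the last 500 bases of their transcripts, 41 of 77 members shared more than 50% of their 50-base words with another annotated gene, and 16 did so with genes counted in the files. The median member shared 51.4% of its words, while of 77 mitochondrial ribosomal protein genes 2 shared more than 50%. Across members rho between the ratio and the shared percent lay between -0.09 and 0.09. The way reads were counted and multiply mapped reads were handled is not given in the labels, so values of these members are uncertain to that degree.

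For 15 members a counted partner shared at least 20% of words and had at least 200 UMIs. Summed over the compared types, the partners of 9 of them were at least 20% lower and those of 5 at least 25% higher within the family, some by far more than the members. Wdr89, which shares words with the acidic stalk protein gene Rplp2, was counted at 14843 UMIs in the wild-type and 1854 in the yap1 cells. Rplp2 alone had a ratio of 1.19, and the pair together 0.91, which turns its direction. Rps27rt, a copy of Rps27, had 12243 and 4051 UMIs, and adding it took the ratio of Rps27 from 1.47 to 1.23.

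For Rpl35, Rpl15 and Rpl27 the sum differed little from the member. Rpl35 had a ratio of 2.00 and 1.91 with its partner Gm2000. Rpl15 had 0.69 and 0.71 with Gm10020, although that partner was at 199 UMIs in wild type and 755 in yap1. Rpl27 had 0.74 and 0.76 with Rpl27-ps3, which had 309 and 843. With partners added, Rps27 was no longer higher in every type, and the other 6 higher and both lower members still were. Among members that share at most 50% of their words, 4 were higher in every type (Rpl37a, Rpl39, Rps29 and Rpl37) and 0 lower, since Rpl15 and Rpl27 are not among them. Rpl37, Rps3 and Rpl4 shared no word with any other gene. Among genes outside the family that were lower in all types, Wdr89 had a median CPM ratio of 0.12, Gm11808 0.25, AY036118 0.33 and Lars2 0.54.

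Some ribosomal proteins have symbols that the pattern does not reach. Fau, which encodes the small-subunit protein eS30 fused to a ubiquitin-like protein, had CPM ratios from 1.01 in hepatocyte-like to 1.42 in neutrophil-like cells. Rps3a1 ranged from 0.94 to 1.08 and Gnb2l1, the scaffold protein RACK1 of the small subunit, from 0.82 to 1.09.

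Lists of other translation genes were read on the CPM scale with the same rule. Of 20 translation factors and other genes with a terminal oligopyrimidine tract, such as elongation and initiation factors, at most 3 were higher and at most 1 lower in any type, with median log2 ratios from -0.10 to 0.07. The 3 higher were in Kupffer cell-like cells, where 20 were tested and 7.03% of all genes were higher. Ribosome biogenesis genes had medians from -0.21 to 0.17, and between 4 and 30 of them had enough UMIs to be tested. The highest counts were 3 lower of 27 in classical monocyte-like cells, beside 6.84% of all genes, 3 lower of 20 in nonclassical monocyte-like cells, beside 8.33%, and 2 higher and 3 lower of 30 in B cell-like cells, beside 5.96% and 6.37%. Genes of mTOR, S6 kinase and Myc signalling had medians from -0.34 to 0.09, with between 2 and 18 genes tested. In Kupffer cell-like cells 1 of 9 was higher and 2 were lower, beside 7.03% and 6.93% of all genes, and in the other types at most 1 was higher and at most 1 lower. Over all genes tested the median was 0.00 in Kupffer cell-like, -0.01 in monocyte-derived macrophage-like and 0.17 in neutrophil-like cells.

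Mitochondrial ribosomal protein genes had median log2 ratios from -0.12 to 0.33. In monocyte-derived macrophage-like cells 9 of 71 tested were higher and 3 lower, with a median of 0.17, beside 6.62% and 9.41% of all genes. In Kupffer cell-like cells 3 of 68 were higher and 2 lower, with a median of 0.07, beside 7.03% and 6.93%. In sinusoidal endothelial cell-like cells 2 of 62 were higher and 5 lower, with a median of -0.09, beside 4.17% and 6.53%. Of the small nucleolar RNA host genes 3 were in the files, and at most 1 was higher in any type. Cell cycle genes had medians from -0.51 over 8 genes in nonclassical monocyte-like cells to 1.02 over 9 genes in hepatocyte-like barcodes.

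The members also differed between cell types, and here each library can be read by itself. A member counts when its within-family share in a type is past 1.5-fold from its median over the 10 types, in the same direction in both libraries. By this rule 29 of 77 members, 37.7%, differed in at least 1 type. Of 739 genes with at least 20 UMIs in every type and library, 91.7% passed the same rule on the same scale. For genes outside the family this scale also carries the family's own spread between types, so 91.7% is not a like measure for members. On the CPM scale, where the family's own level enters, 100% of members and 95.5% of the 739 genes passed. Over 770 pairs of member and type, the log2 deviations of the 2 libraries had a Pearson correlation of 0.96, a description over points that share marker gates and, within a library, cells.

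Neutrophil-like cells held most of these departures, 5 members higher and 17 lower. Without them 14 members passed, 13 of which were among the 29. B cell-like cells had 2 higher and 3 lower, T cell-like cells 1 and 3, hepatocyte-like barcodes 3 and 1, plasmacytoid dendritic cell-like cells 2 and 1, and Kupffer cell-like cells 1 and 1. In sinusoidal endothelial cell-like cells 1 member was higher, and no member passed in the monocyte-derived macrophage-like and both monocyte-like types.

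Rps9, a small-subunit protein that helps keep decoding accurate, made up 7.06% of member UMIs in wild-type and 5.99% in yap1 neutrophil-like cells. In the other types it lay between 1.05% and 2.58% in wild type and between 1.11% and 2.24% in yap1, so the neutrophil-like values stood apart in both libraries. They were 4.03 and 4.10 times the median type. Rps27a, whose product is a ubiquitin fusion, was also high there, at 4.80% and 4.01%, or 2.64 and 2.17 times the median, and so were Rps27, Rpl37 and Rpl41.

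Among the members low in neutrophil-like cells were Rpl3, a large-subunit protein close to the peptidyl transferase centre, at 0.34 and 0.27 times the median type, Rpl10a at 0.36 and 0.28 and Rpl12, a protein of the stalk base, at 0.34 and 0.38. Rpsa, the laminin receptor protein of the small subunit, was at 0.63 and 0.49 times the median. Because the family was only 2.90% and 3.64% of UMIs in these cells, members there rest on fewer counts: the least abundant one, Rps27l, had 199 UMIs over both libraries.

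Rpl31, a large-subunit protein, was highest in plasmacytoid dendritic cell-like cells, with 0.971% of member UMIs in wild type and 1.11% in yap1, or 3.51 and 3.14 times the median type. The other types ranged from 0.172% to 0.397% in wild type and from 0.226% to 0.434% in yap1, and T cell-like cells were lowest in both. Rps19 was lower in plasmacytoid dendritic cell-like cells and also in neutrophil-like cells, its lowest type in both libraries.

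Lymphocytes had more Rpl12 than other types: 1.85% and 1.65% of member UMIs in T cell-like and 1.63% and 1.45% in B cell-like cells, beside medians of 0.981% and 0.931%. Rpl10, the large-subunit protein that joins late in ribosome assembly, was low in both, with 0.983% and 1.11% in B cell-like and 0.877% and 0.964% in T cell-like cells. Rpl7a was low in B cell-like cells, at 0.458% and 0.435%, or 0.60 and 0.61 times the median.

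Rps6, the small-subunit protein that S6 kinases phosphorylate, was high in sinusoidal endothelial cell-like cells. It made up 1.68% of member UMIs there in wild type and 1.46% in yap1, 1.79 and 1.78 times the median. In the other types it lay between 0.755% and 1.06% in wild type and between 0.626% and 1.04% in yap1, so the endothelial value was above all of them in both libraries.

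**Figure D4:**
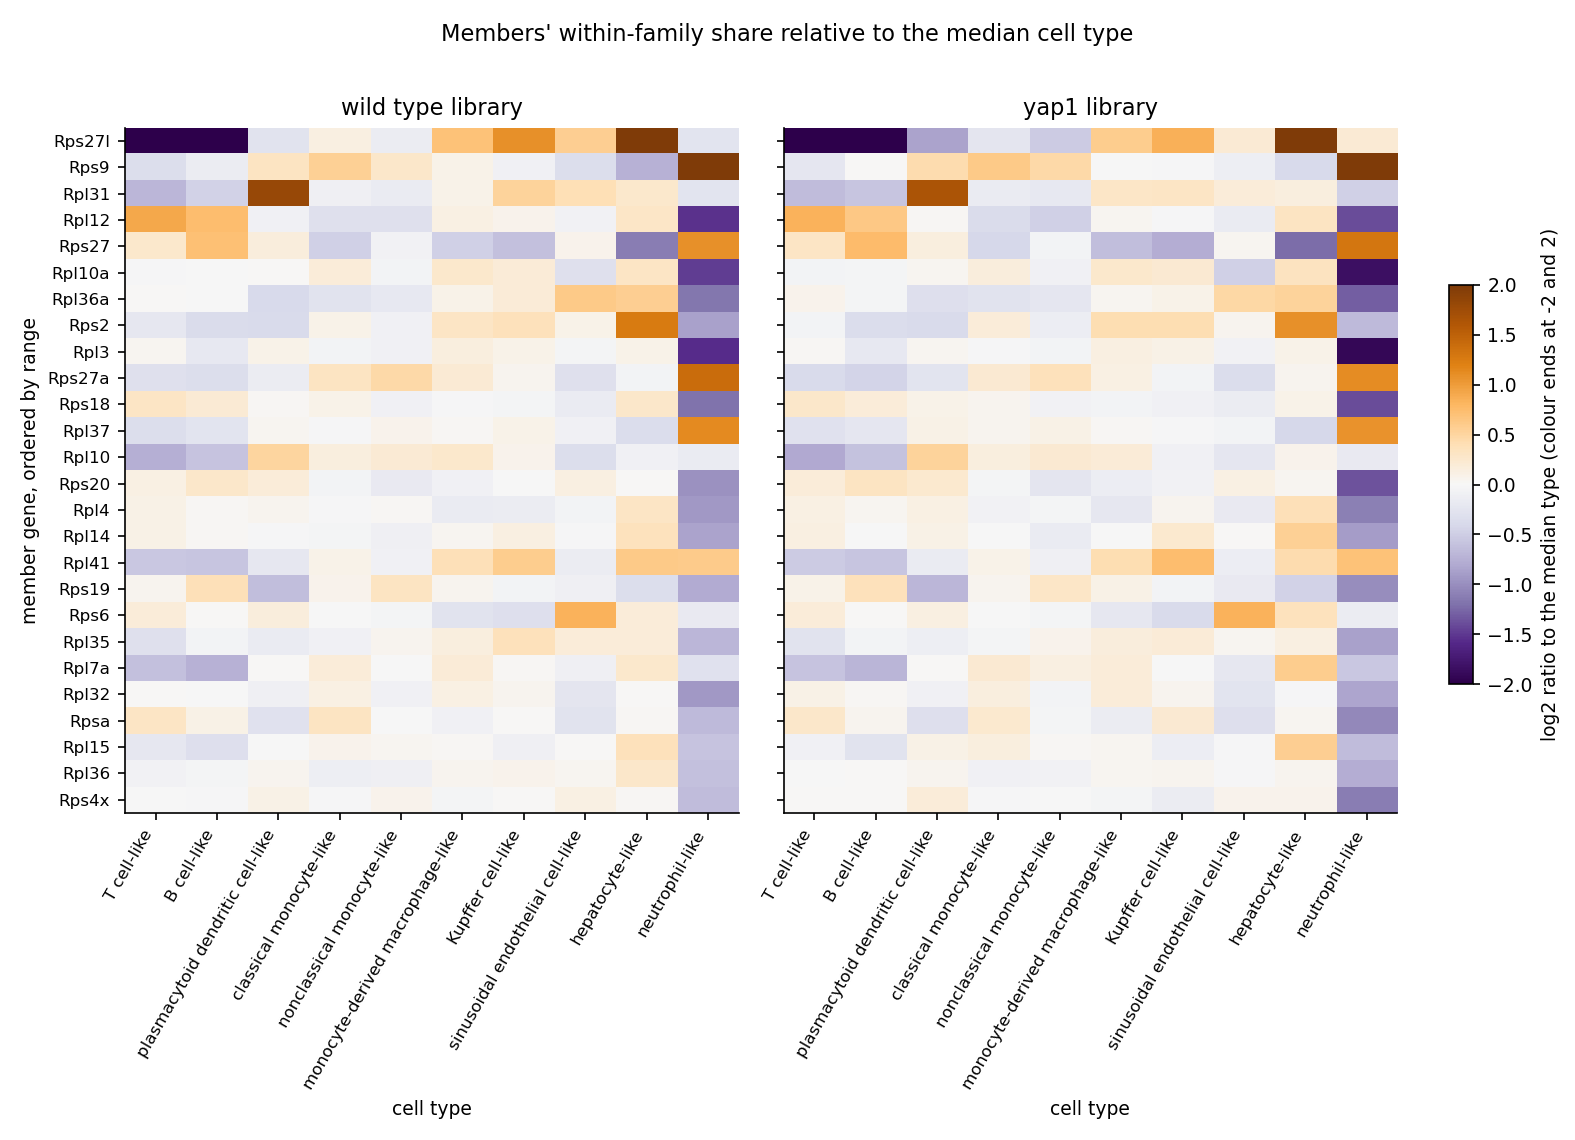
Heat maps of the log2 ratio of each member's within-family share to its median over 10 cell types (columns), for 26 of the 29 members that passed 1.5-fold in some type (rows, ordered by range), in the wild-type (left) and yap1 (right) libraries; colour ends at -2 and 2. Both panels show the same pattern, with most strong colours in the neutrophil-like column and Rps27l high in hepatocyte-like and low in T and B cell-like cells.

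Rps27l varied most of all members. It is a paralog of Rps27, both encode proteins of 84 residues, and Rps27l is known as a target of p53. Its within-family share was lowest in B cell-like cells, 0.0333% in wild type and 0.0250% in yap1, and highest in hepatocyte-like barcodes, 1.44% and 1.34%. The range was 43.2-fold and 53.6-fold, against 6.72-fold and 5.41-fold for Rps9, the next by the smaller of both ranges. By contrast Rpl27a spanned 1.11-fold and 1.19-fold, Rpl39 1.28-fold and 1.26-fold and Rpl8 1.37-fold and 1.32-fold.

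As a percent of the UMIs of the pair, Rps27l made up 1.85% (1.69% to 2.02%) in wild-type B cell-like cells and 2.79% (2.50% to 3.12%) in T cell-like cells. It was 34.1% (31.9% to 36.4%) in Kupffer cell-like, 26.4% in monocyte-derived macrophage-like, 19.4% in classical monocyte-like and 13.2% in nonclassical monocyte-like cells, and 74.3% (69.5% to 78.7%) in hepatocyte-like barcodes. The yap1 library kept this order among these types, with 0.912%, 1.79%, 28.1%, 22.9%, 12.6%, 8.42% and 66.0%. In every compared type the yap1 percent was the lower, beside the higher Rps27 and lower Rps27rt counts given above. The intervals overlapped in neutrophil-like cells, at 5.92% (4.56% to 7.54%) in wild type and 5.59% (4.72% to 6.57%) in yap1, and in hepatocyte-like barcodes. Rps27l itself had 326 CPM in both libraries in classical monocyte-like cells, but 41.4 and 85.8 in neutrophil-like, 355 and 461 in monocyte-derived macrophage-like, 415 and 492 in Kupffer cell-like and 93.0 and 74.7 in B cell-like cells of wild type and yap1.

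Among other paralog pairs, Rpl22l1 made up between 19.1% and 31.0% of its pair with Rpl22 outside hepatocyte-like barcodes, where it was 42.1% in wild type and 49.2% in yap1. Rpl36al made up from 27.6% of its pair with Rpl36a in yap1 sinusoidal endothelial cell-like cells to 63.3% in wild-type hepatocyte-like barcodes. Rpl7l1 made up between 0.981% of its pair with Rpl7 in yap1 T cell-like cells and 8.92% in yap1 hepatocyte-like barcodes, where it had 19 UMIs. Rpl3l, one of the genes below the threshold, made up 9.88% (16 UMIs) and 20% (35 UMIs) of its pair with Rpl3 in wild-type and yap1 neutrophil-like cells, and 1.48% and 1.46% in nonclassical monocyte-like cells. In T cell-like cells and hepatocyte-like barcodes Rpl3l had 0 UMIs in both libraries.

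**Figure D5:**
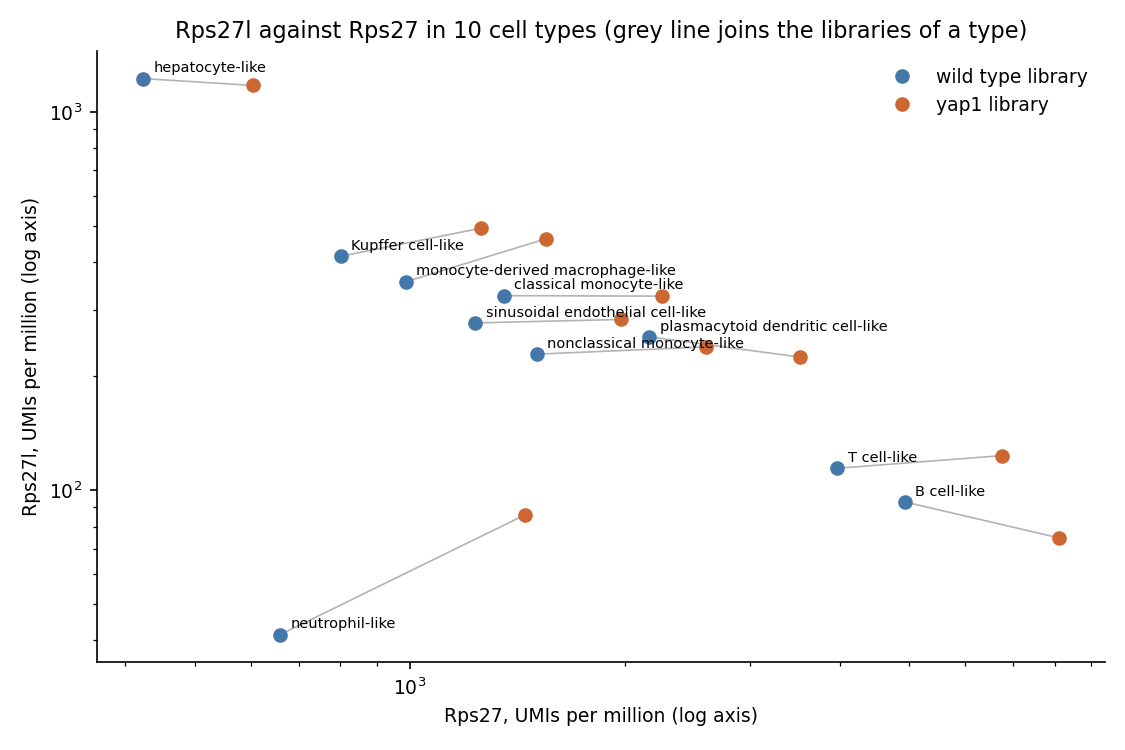
Rps27l against Rps27 in CPM (both log axes) for 10 cell types, with the wild-type and yap1 points of a type joined by a grey line. From hepatocyte-like barcodes (1225 and 423 CPM of Rps27l and Rps27 in wild type) to B cell-like cells (93.0 and 4933 CPM) types with more Rps27 tend to have less Rps27l, while neutrophil-like cells had only 41.4 and 659 CPM.

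By UMIs the most abundant members were Rps24 with 353536, Rplp1 with 295405, Rpl13 with 269736, Rpl23 with 253479 and Rps16 with 246988 over both libraries. Per kilobase of annotated transcript the order was Rps29, Rplp1, Rps27, Rpl32 and Rps21. The libraries differed in this comparison: Rps29 was counted 70688 times in wild type and 162192 times in yap1, whereas Rps24 was counted 170068 and 183468 times.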

How the data were processed

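Droplet single-cell RNA of nonparenchymal liver cells was analysed in 1 wild-type and 1 yap1 library. The deposited files hold whole-number counts per gene and barcode, per the file headers, taken here as raw UMI counts. The submitters' processing notes name Bowtie 0.12.2, Seurat and mm10 without saying what each was used for. The aligner's settings, the annotation, the chemistry and the choice of barcodes are not given in the sources used here.

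Barcodes with at least 500 UMIs, 200 genes and at most 20% mitochondrial UMIs passed (4847 and 4149). The automatic threshold of Scrublet (scanpy 1.11.5) marked 3 and 4 of them, so the 4% with the highest scores were left out (194 and 166). A gate needed at least 3 detected markers of a list and a detected share of that list 1.5 times that of any other. This ratio was 2 at first and was lowered after the numbers of gated cells, but no ribosomal values, had been compared. NK cell or ILC1-like (63 and 43 cells) and conventional dendritic cell 2-like cells (51 and 47) were among types below 50 cells and were not compared.

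UMIs were summed per type and library. Shares carry exact Clopper-Pearson and ratios exact conditional binomial 95% intervals, for counting error only. Genes were named by rule: the 3 highest and 3 lowest members in 4 main types, those past the fold rule in every type, the 5 that differ most and 3 least between types, the 5 most and 3 least abundant, members at the threshold and paralogs, and list genes. The members, lists and rules were chosen with earlier results of these data known. Coding length, the second pyrimidine-run definition, partner sums and the count over every type were added after seeing values.

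Lengths and coordinates came from GENCODE M21 (27645 of 27998 gene IDs matched) and start-site sequences from RefSeq (GRCm38.p6, 57 of 77 members). Alternatives changed filters, doublets, gates, scales and thinning, used Leiden clusters (2000 variable genes, 30 components, 15 neighbours, resolution 1) named from the same markers, or left out members or types. Calculations were tested on simulated counts. Python 3.11.15, numpy 2.4.6, scipy 1.17.1 and pandas 2.3.3 were used. A few genes that the naming rule selects are not reported here; they stay in all sums and counts.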

Additional observations from a re-analysis of the deposited data

Results flagged for a closer look

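The within-family ratio of Rps27l, yap1 over wild type, passed the fold rule in opposite directions in different cell types: it was 1.65 in neutrophil-like cells, which rests on 61 wild-type and 138 yap1 UMIs, and 0.75 in B cell-like cells, which rests on 481 and 336. The difference between these ratios was not tested. No other member was higher in one compared type and lower in another by this rule.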

How the results depend on the processing

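No paired analysis was possible because each genotype had 1 library, and for the same reason no replicate could be left out. The share was higher in yap1 in every compared type under each alternative except in hepatocyte-like barcodes, where the ratio was 0.9992 with thinning, 0.9991 with the restricted total and 0.9998 at a gate ratio of 2. At that gate ratio 8 types had enough cells, and 7 were higher. Most of the 9 members that passed in every type were picked for being higher, so leaving them out lowers the ratio by that choice. Without them, ratios were 1.115 in Kupffer cell-like, 1.126 in monocyte-derived macrophage-like, 1.031 in classical monocyte-like and 1.045 in sinusoidal endothelial cell-like cells. In the same 4 types, values outside the main interval were as follows. Leiden clusters gave 1.2, 1.136 and 1.069 in the first 3. Equal weight per cell gave 1.186, 1.214, 1.058 and 1.103, and thinning 1.156, 1.194, 1.055 and 1.108. The restricted total gave 1.175 (Kupffer cell-like) and 1.101 (endothelial). One more marker gave 1.168 (macrophage-like) and 1.08 (endothelial), a gate ratio of 2 gave 1.18 (Kupffer cell-like) and 1.06 (classical monocyte-like), and no filter gave 1.075 (endothelial).

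The count of members that passed in monocyte-derived macrophage-like cells was 13, beside 22 on the CPM scale and 23 with median-of-ratios scaling. Over the 36 members that share at most 50% of their words, fewer members being tested, it was 6 in Kupffer cell-like, 6 in monocyte-derived macrophage-like, 5 in classical monocyte-like and 7 in sinusoidal endothelial cell-like cells. The 7 members higher in every type became 4 with the stricter filter and 4 among those 36 members. The 2 lower ones became 1 on the CPM scale, 0 with median-of-ratios scaling and 0 among the 36. Between types, 29 members became 14 without neutrophil-like cells (13 shared with the 29) and 25 to 38 under the others. Apart from constructions that test fewer members or cells, the cause of these changes was not tested. Counts are a limit where members had few UMIs: the fewest per type were 145 in hepatocyte-like barcodes and 199 in neutrophil-like cells over both libraries.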
